A study of Mus musculus with 42 samples.

Results

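A set of 8 genes of transcription elongation (of 12364 genes in the RNA-seq tables and 14357 genes with a polyadenylation site in the 3′READS tables) were followed through arsenic stress (AS), recovery from it (RC) and muscle cell differentiation. They were Hexim1, Ccnt1, Ccnt2, Cdk9, Cdk12, Cdk13, Polr2a and Ell2, chosen by name as genes of P-TEFb and its regulators, the other elongation kinases and the large RNA polymerase II (Pol II) subunit. Their RNA-seq values were matched by gene symbol. Their 3′READS values were the reads at polyadenylation sites (PASs) on the gene's strand, from its annotated start on mm9 to 4 kb past its end or up to the next gene, which gave 67 of the 83916 PAS clusters.

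The 42 libraries came from 2 mouse cell lines, the embryonic fibroblast line NIH3T3 and the muscle precursor line C2C12, both given the strain C57BL/6 in the labels. NIH3T3 cells were not treated (NT), stressed for 1 h by sodium arsenite at 250 µM (AS), or stressed in the same way and returned to normal medium for 4, 8, 12 or 24 h (RC4, RC8, RC12, RC24). Poly(A)+ RNA of whole cells was read by RNA-seq (2 NT libraries, 1 labelled 0 h and 1 labelled 4 h, with 1 AS and 1 RC4) and by 3′READS (3 NT, 3 AS, 1 each of RC4, RC8, RC12 and RC24). Other NIH3T3 cultures received 50 µM 4-thiouridine (4sU) for the last 1 h, and the labelled, newly made RNA (4sU) was separated from the unlabelled, pre-existing flow-through (Ft), with 2 NT, 1 AS and 1 RC4 library of each. In each fraction, NT replicate 1 was labelled 0 h and NT replicate 2 was labelled 4 h. RNA bound to TIA1, a protein that binds U-rich RNA and gathers in stress granules, was immunoprecipitated from cytoplasm and sequenced beside its input (2 NT and 2 AS of each). C2C12 cells were proliferating myoblasts (MB) or differentiated myotubes (MT), either stressed as above and read in the cytoplasm (2 NT, 1 AS and 1 RC4 of each) or untreated and read in total RNA (2 MB, 2 MT). The cytoplasmic NT libraries of both cell states were likewise labelled 0 h (replicate 1) and 4 h (replicate 2). Every recovery value, and every AS value outside total RNA and the TIA1 experiment, rests on 1 library.

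P-TEFb is the kinase CDK9 with cyclin T1 or cyclin T2, encoded by Ccnt1 and Ccnt2, and it releases Pol II paused near promoters by phosphorylating the polymerase and the factors that hold it. HEXIM1 keeps part of P-TEFb inactive on the 7SK RNA, from which stress releases it. ELL2 belongs to the super elongation complex, which brings P-TEFb to paused Pol II. CDK12 and CDK13 act with cyclin K on the same polymerase tail, and CDK12 is known for keeping Pol II from ending at early PASs. POLR2A is the large subunit that carries this tail.

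The members end their transcripts in different ways, and the sites that carry their reads are shown first because every 3′READS value below counts reads at them. Each sequence is the 30 nt of NCBIM37 (mm9) genome that end at the PAS, 5′ to 3′ on the gene's strand, with the AATAAA or ATTAAA poly(A) signal in capitals. Hexim1, a gene without introns, has a PAS 379 nt past its stop codon (chr11:102979657-102979686, + strand) and a second 1735 nt past it (chr11:102981013-102981042).
Hexim1 proximal: tctagttatAATAAAtttaatgtttgtaaa
Hexim1 distal: agattgcATTAAAtgtctattttgaaactg
The cyclin genes have long 3′UTRs. Ccnt1 ends 4516 nt past its stop codon (chr15:98369125-98369154, − strand), and Ccnt2 has 3 main PASs, 2204, 2373 and 4501 nt past it (chr1:129702312-129702341, chr1:129702481-129702510 and chr1:129704609-129704638, + strand).
Ccnt1: atcccatcAATAAAcgttaatgataaaata
Ccnt2 proximal: agatatgggAATAAAggtaattttgttgaa
Ccnt2 middle: tttATTAAAaggcagtcagtgtgattttta
Ccnt2 distal: attAATAAAgtttgtttattgacaaccaaa
Cdk9 was read at a single PAS, 485 nt past the stop codon (chr2:32562958-32562987, − strand). Cdk12 has a proximal PAS at 658 nt (chr11:98112333-98112362, + strand) and a distal PAS at 3148 nt (chr11:98114823-98114852), which lies past the last exon of its annotated coding transcripts. Cdk13 was read mostly at a PAS 578 nt past the stop codon (chr13:17809316-17809345, − strand).
Cdk9: ATTAAAagttggttatttttttccagtaaa
Cdk12 proximal: tccaAATAAAtcatccttatgtttgctcaa
Cdk12 distal: ttggaaaATTAAAtatttcctgttaatata
Cdk13: cagaaaAATAAAacacaacctttctcttga
Polr2a was read at a single PAS, 412 nt past its stop codon (chr11:69547499-69547528, − strand). Ell2 has neighbouring PASs at 1424 and 1564 nt (chr13:75909640-75909669 and chr13:75909780-75909809, + strand), and neither window holds either hexamer.
Polr2a: tgaAATAAAgtttactaattttgaccaaaa
Ell2 proximal: gtggtcaaaatataaagattttgaactaaa
Ell2 distal: ataaagatgtttgtcttcagcatccaaaaa
Of the 67 member PASs, 22 held AATAAA, 12 held only ATTAAA and 33 held neither in these windows. The 67 include sites in introns and in exons before the 3′UTR, which the following set leaves out, so the shares are not like for like. Among all 43901 PASs in 3′UTRs or downstream of genes, 47.3% held either hexamer, and 63.9% did among the 20470 with at least 100 reads. Cdk12 counts also include 4 sites between 27169 and 30725 nt past the stop codon, with 66, 92, 72 and 47 reads over all libraries, because the annotated gene span reaches that far. Whether they end Cdk12 transcripts was not tested.

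Depth was 17136953 to 25193331 reads per RNA-seq library and 1048335 to 6974664 PAS reads per 3′READS library. In 3′READS the members were read thinly, with a median over the 38 libraries of 18 reads for Hexim1, 21 for Polr2a, 26 for Cdk12, 58 for Ccnt2, 79 for Ccnt1, 92 for Ell2, 101 for Cdk13 and 454 for Cdk9. PAS clusters with fewer than 5 reads are left out of the deposited tables, so a member without a listed read may have had a few. Hexim1 had no listed read in 7 libraries, Polr2a in 3 and Cdk12 in 1. All 7 fibroblast markers were measured in NIH3T3, where the myoblast markers Myod1, Myf5 and Des were at 0 in total RNA 3′READS. In C2C12 the fibroblast markers Thy1 and Pdgfra were at 0, but the other 5 carried the summed level of the list. It was 6281 to 13957 RPM (reads per 1000000 reads, after scaling between libraries) over cytoplasmic and total RNA. In NIH3T3 3′READS it was 1655 to 6820 in total RNA, 3457 to 6317 in 4sU, 8207 to 10209 in Ft and 1768 to 3810 in TIA1 and input. Each set was scaled separately, and the C2C12 and Ft ranges overlapped. The summed level of 8 myotube markers was 81.0 to 85.4 RPM in MB and 27522 to 29002 in MT in total RNA, and 168 to 350 in MB and 15475 to 23785 in MT in the cytoplasm, lowest of the MT libraries at RC4. The summed level of Myod1, Myf5 and Des was also higher in MT, so this myoblast list did not mark MB. It was 162 to 172 RPM in MB and 647 to 803 in MT in total RNA. In the cytoplasm it was 85.2 to 103 in MB and 195 to 268 in MT. The summed level of 5 arsenite-response genes in RNA-seq was 217 to 282 RPM in NT, 8058 in AS and 102796 in RC4.

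In untreated NIH3T3 cells the members' RNA-seq levels were compared per length of coding sequence. Ell2 had 89.3 and 115 RPM per kb in the NT libraries, Hexim1 95.3 and 81.2, Cdk9 75.0 and 84.2, and Polr2a 70.0 and 54.6. The ranges of Ell2 and Hexim1, and those of Hexim1 and Cdk9, overlapped, so their order is not set by these libraries. Cdk12 stood lower at 26.1 and 26.0. Ccnt1 at 16.2 and 14.2 overlapped Cdk13 at 14.7 and 14.1, and Ccnt2 was below all of them at 9.95 and 9.48.

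The RNA-seq libraries asked how transcript levels stood directly after 1 h of AS and after 4 h of recovery. Differences were tested with edgeR's quasi-likelihood test over all genes, with the NT libraries shared by both comparisons and giving the only estimate of spread (1 residual degree of freedom per gene). Levels are in RPM after median-ratio scaling, and changes are log2 fold changes ± SE.

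In the RNA-seq library taken after 1 h of AS, Ccnt2 was raised and Ell2 less so, while no member passed as lower. They were 2 of the 8 members, beside 5.5% of all 10829 genes tested. Ccnt2 was at 21.6 and 20.6 RPM in the NT libraries and 46.3 in AS, a change of 1.14 ± 0.20 (edgeR, adjusted p = 8.7e-05). The AS library lay above both NT libraries by more than they differed from each other. Ell2 was at 171 and 221 in NT and 289 in AS, a change of 0.56 ± 0.15 (edgeR, adjusted p = 0.016). The Ell2 call was lost with DESeq2 (adjusted p = 0.113) and without the filter on low counts (adjusted p = 0.0619). Hexim1, with 102 and 86.7 in NT and 120 in AS, missed the threshold at 0.35 ± 0.16 (edgeR, adjusted p = 0.25). The other 5 members changed by −0.12 to 0.23 and did not pass.

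After 4 h of recovery the RNA-seq levels of Hexim1 and Polr2a fell, while those of Cdk9, its cyclins and Ell2 rose. In all 7 of 8 members passed the test, 5 higher and 2 lower, beside 51.8% of all genes (27.6% higher and 24.2% lower), so passing this test was common. The median change of the 8 members was 0.59, beside −0.01 for all genes.

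Hexim1, the inhibitor, had 2240 and 1721 reads in the NT libraries, 3069 in AS and 647 in RC4. Scaled, it was at 38.8 RPM in RC4 against 102 and 86.7 in NT. It fell by 1.28 on the log2 scale (SE 0.18, edgeR, adjusted p = 6e-08), a fold of 0.411. Polr2a followed with 414 and 323 RPM in NT, 344 in AS and 158 in RC4. It fell by 1.22 (SE 0.16, edgeR, adjusted p = 3e-08). For both genes the RC4 library lay below all 3 other libraries.

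Ell2 reached 586 RPM in RC4 from 171 and 221 in NT, the highest of its 4 libraries. Its change was 1.58 ± 0.15 (edgeR, adjusted p = 4.6e-12), a fold of 2.99. Cdk9, the catalytic subunit of P-TEFb, was at 83.7 and 94.0 in NT, 104 in AS and 196 in RC4, a change of 1.14 ± 0.15 (edgeR, adjusted p = 2.7e-08). The smaller rises were those of its cyclins and of a related kinase. Ccnt1 was at 35.2 and 30.9 in NT and 51.9 in RC4 (0.65 ± 0.20), Ccnt2 at 33.0 in RC4 (0.65 ± 0.21), and Cdk13 at 66.8 and 64.0 in NT and 95.1 in RC4 (0.54 ± 0.16), with edgeR adjusted p-values of 0.0049, 0.0083 and 0.005. Cdk12 was at 116 in both NT libraries and 92.1 in RC4, and its change of −0.33 ± 0.16 missed the threshold (edgeR, adjusted p = 0.076).

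The direction of the 3 smaller rises depended on the scaling. In the RC4 library the 10 most abundant genes took 20.9% of the reads against 6.59 to 7.16% in the other libraries, with Hsph1, a heat shock protein gene, alone at 3.91%. Scaled by library total, the median of all genes moved to −0.82 and the share of higher calls among all genes called from 53.2% to 13.4%, and Ccnt1, Ccnt2 and Cdk13 turned to −0.15, −0.16 and −0.26, which are 0.66, 0.66 and 0.55 above that median. Ell2 (0.77) and Cdk9 (0.34) stayed higher and Hexim1 (−2.09) and Polr2a (−2.03) lower under that scaling. Cdk12 passed as lower (−1.14), as it did with TMM scaling (−0.37, edgeR, adjusted p = 0.047).

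**Figure D1:**
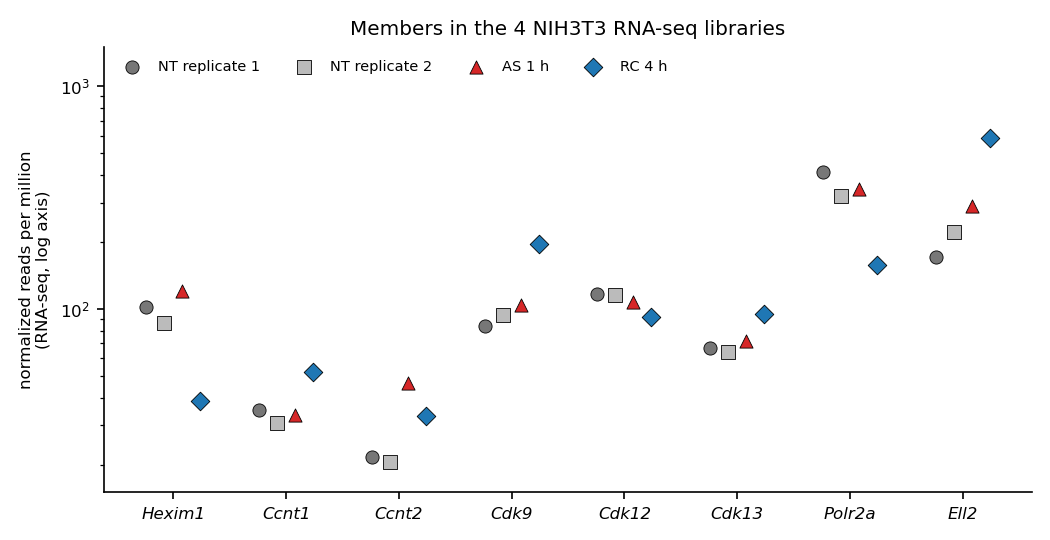
Normalized RPM (log axis) of each member in the 4 NIH3T3 RNA-seq libraries, 1 marker per library. The RC4 marker is lowest for Hexim1 and Polr2a and highest for Ell2 and Cdk9, and the AS marker is highest for Ccnt2. With library totals in place of median ratios, the RC4 changes of Ccnt1, Ccnt2 and Cdk13 turn negative.

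The 3′READS libraries of total RNA asked the same at transcript ends, with replicates of NT and AS and a time course to 24 h. No member passed the test at any time. After AS, 0.0901% of all 9987 genes passed (616 had an unadjusted p under 0.05, and DESeq2 called 99), and no member had an unadjusted p under 0.05. In these 3 NT and 3 AS libraries Ccnt2 changed by 0.28 ± 0.27 and Ell2 by −0.25 ± 0.43. The RNA-seq changes were 1.14 ± 0.20 and 0.56 ± 0.15, and this difference between assays was not tested. At RC4, 6.6% of genes passed, 2 members (Ccnt2 and Hexim1) had an unadjusted p under 0.05, and DESeq2 called no member. RC8 had 0.16% of genes called (1324 with an unadjusted p under 0.05, DESeq2 291). RC12 and RC24 had 0% (850 and 624 with an unadjusted p under 0.05, DESeq2 80 and 16).

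In the time course, Hexim1 was at 18.3 RPM in NT, 6.65 in AS, 13.0 in RC8 and 10.1 in RC12, from 7 to 25 reads, and had no listed read in RC4 and RC24. No fold is given against such a library. Ccnt2 was at 13.9 in NT, 17.1 in AS, 32.4 in RC4, 25.3 in RC8, 16.1 in RC12 and 7.09 in RC24, with RC4 the highest and RC24 the lowest of the 6. Its change at RC4 was 1.21 ± 0.48 (edgeR, adjusted p = 0.17). Ell2 was at 18.3 in NT, 4.75 in AS and 22.1 in RC4, the lowest value resting on 5 reads, and its change at RC4 was 0.78 ± 0.65 (edgeR, adjusted p = 0.53). Cdk9, the best read member, held between 143 and 162 from NT through RC12 and was at 103 in RC24. Its change at RC4 was 0.07 ± 0.32 here beside 1.14 ± 0.15 in RNA-seq, a difference between assays that was not tested. Polr2a changed by −0.48 ± 0.46 at RC4 here, from 17 reads in RC4 (edgeR, adjusted p = 0.60), beside −1.22 ± 0.16 in RNA-seq.

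For Polr2a, Hexim1 and Ell2 the replicate sets stood further apart than the conditions. Polr2a had 156 reads in NT and 192 in AS of replicate 1, but 9 and 11 in the deeper replicate 2. Hexim1 had 0 listed reads in NT and 6 in AS of replicate 1, and 70 and 77 in replicate 2. Ell2 had 6 and 12 reads in replicate 1 and 92 and 120 in replicate 2, with its main PAS at 1564 nt not listed in replicate 1. Over all genes, 94 of 8553 with at least 50 NT reads in replicate 2 had none listed in replicate 1. Without replicate 4 of NT, Cdk13 passed at RC4 (1.58 ± 0.45, edgeR, adjusted p = 0.028). Without replicate 4 of AS, Hexim1 did (edgeR, adjusted p = 0.0072), a call that rests on an RC4 library with no listed Hexim1 read.

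**Figure D2:**
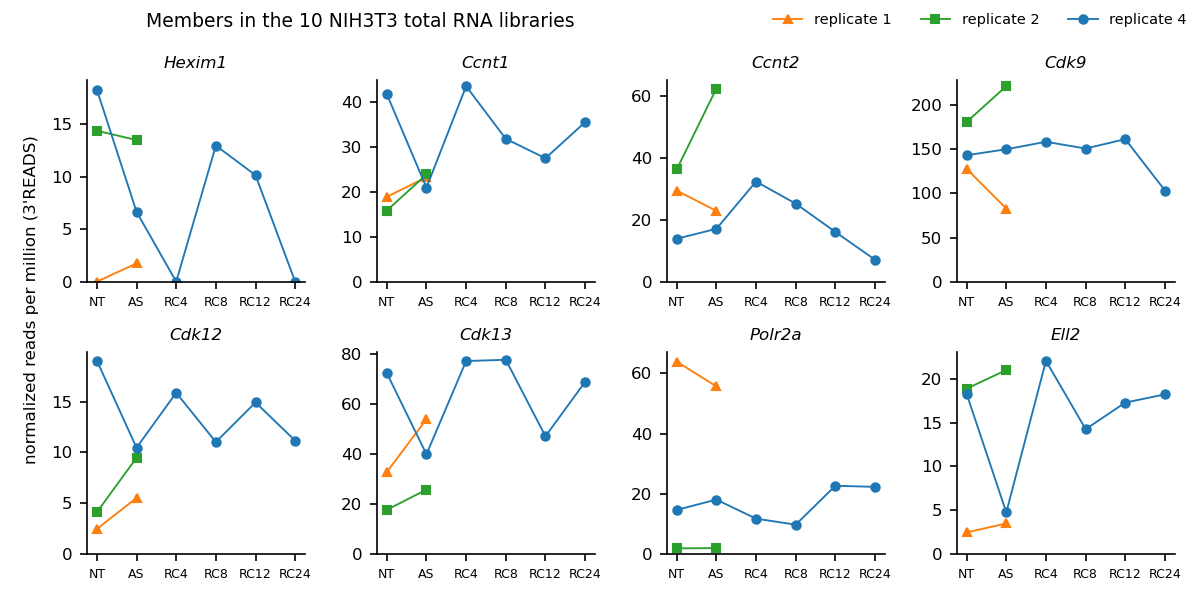
Normalized RPM (linear axis from 0, 1 panel per member) in the 10 NIH3T3 total RNA libraries, with lines joining libraries of the same replicate number. Replicate 4 is the time course, in which Hexim1 is at 0 in RC4 and RC24 because no read was listed, and Polr2a separates by replicate rather than by condition.

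Newly made and pre-existing RNA were compared to ask where in a transcript's life the levels moved. During the 1 h of AS, Cdk12 was the 1 member of 8 whose newly made RNA changed, beside 3.55% of 10916 genes (2.24% higher and 1.32% lower). It was at 63.4 and 68.0 RPM in the 4sU NT libraries and 25.8 in AS. It fell by 1.35 (SE 0.30, edgeR, adjusted p = 0.041). The reads behind it were 153, 282 and 48. DESeq2 gave an adjusted p of 0.0510, and the call was lost without either NT replicate (−1.40 and −1.30). The other 7 members ranged from −0.25 to 0.48. In Ft RNA no member passed in AS, beside 0.632% of genes (69 called, 1129 with an unadjusted p under 0.05, DESeq2 134). Ccnt2 and Cdk13 had unadjusted p-values under 0.05 there.

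At RC4, 3 of 8 members changed in newly made RNA (23.6% of genes) and 3 of 8 in pre-existing RNA (22.6%). Hexim1 had 23.6 and 18.3 RPM in newly made NT RNA, 18.3 in AS and 7.33 in RC4. It fell by 1.50 at RC4 (SE 0.46, edgeR, adjusted p = 0.04). In Ft it was at 8.86 and 10.7 in NT and 2.90 in RC4, from 6 reads, and missed the threshold at −1.74 ± 0.62 (edgeR, adjusted p = 0.071). The RC4 library was below the NT libraries in both fractions. Newly made Ccnt2 was at 109 and 123 in NT, 118 in AS and 227 in RC4, a change of 0.97 ± 0.21 (edgeR, adjusted p = 0.0095). In Ft its change was 0.48 ± 0.28 and did not pass. Newly made Polr2a was at 10.4 and 19.0 in NT and 14.9 in RC4, a change of −0.02 ± 0.46. In Ft Polr2a changed by −0.99 ± 0.55, from 17 reads in RC4, and it passed in neither fraction.

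Cdk9 passed in both fractions. It was at 308 and 244 in newly made NT RNA and 448 in RC4 (0.70 ± 0.21, edgeR, adjusted p = 0.037), and at 336 and 319 in pre-existing NT RNA and 562 in RC4 (0.78 ± 0.21, edgeR, adjusted p = 0.026). Its RC4 libraries were the highest of each fraction. Ccnt1 rose in Ft from 38.1 and 41.4 to 82.1 (1.04 ± 0.22, edgeR, adjusted p = 0.0091), with a change of 0.45 ± 0.19 in 4sU that did not pass. Ell2 in Ft was at 37.0 and 38.5 in NT, 46.4 in AS and 130 in RC4, a change of 1.78 ± 0.25 (edgeR, adjusted p = 0.0011) and a fold of 3.44. Newly made Ell2 was at 139 and 100 in NT, 131 in AS and 171 in RC4 (0.53 ± 0.24, edgeR, adjusted p = 0.14). The calls of Hexim1 in 4sU and of Cdk9 in both fractions were lost when NT libraries were left out (Hexim1 −1.69 to −1.33, Cdk9 0.53 to 0.87 in 4sU and 0.74 to 0.82 in Ft), and without replicate 2 of 4sU NT the 4sU count went from 3 to 1. Scaled by library total, Cdk9 in both fractions (0.41 and 0.34) and Ccnt1 in Ft (0.60) no longer passed, and Hexim1 in Ft did (−2.18, edgeR, adjusted p = 0.025). The share of higher calls among all genes called went from 53.7% to 29.2% in 4sU and from 59.9% to 26.7% in Ft.

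**Figure D3:**
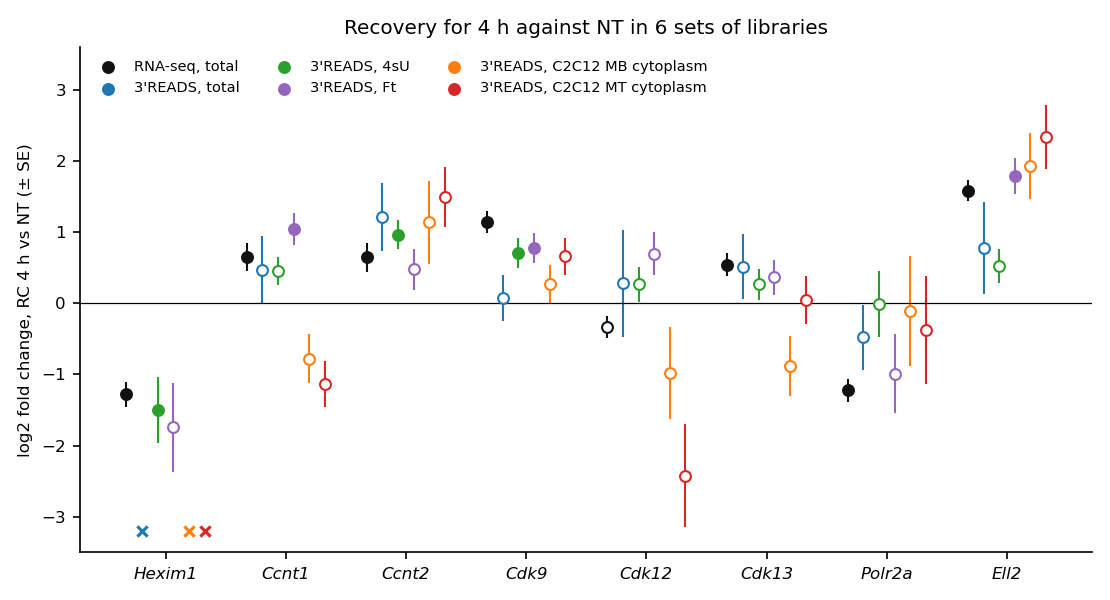
Log2 fold change of RC4 against NT (± SE) for each member in 6 sets of libraries, filled where the edgeR adjusted p was under 0.05 and open otherwise, with crosses at the lower edge where Hexim1 had no listed read in the RC4 library. All drawn Hexim1 values are below 0 and all Ell2 values above it, while Ccnt1, Cdk12 and Cdk13 lie on different sides of 0 in different sets, and the RNA-seq values of Ccnt1, Ccnt2 and Cdk13 turn negative with library totals.

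The ratio of pre-existing to newly made RNA, log2(Ft/4sU), tells long-lived from quickly turned over transcripts where levels are steady. In AS and RC4 levels were changing. The label covered the last 1 h, so Ft at RC4 also held RNA made earlier in recovery, and the ratio there does not give lifetime alone. In NT cells 6 of 8 members were lower in Ft, beside 42.6% of genes called in all and 23.3% called lower, and the median ratio was −1.49 beside −0.06 for all genes. Ccnt1 had 363 and 337 RPM in 4sU and 38.1 and 41.4 in Ft, a ratio of −3.13 ± 0.18 (edgeR, adjusted p = 2.4e-05). It was 109 and 123 against 22.3 and 18.8 for Ccnt2, or −2.50 ± 0.21 (edgeR, adjusted p = 4.8e-05). No library of one fraction overlapped the other for the cyclins. Cdk12 (−1.95 ± 0.23), Ell2 (−1.65 ± 0.22), Cdk13 (−1.34 ± 0.19) and Hexim1 (−1.08 ± 0.36) were also lower, with edgeR adjusted p-values from 0.00018 to 0.033. The Hexim1 call was lost with DESeq2 and without any of 3 of the 4 NT libraries (−1.27 to −0.91). Cdk9 at 0.25 ± 0.18 and Polr2a at 0.11 ± 0.38 did not pass.

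Longer transcripts hold more uridines and so take up more 4sU, and the members' transcripts held from 378 uridines for Cdk9 to 2129 for Ccnt1. A line of the ratio on the number of uridines (log2) was fitted over the 10497 of 10916 genes (96.2%) with an annotated transcript. Uridines were counted in the longest annotated coding transcript, not up to the PASs read here. The adjusted NT values are distances from that line. They were −2.04 for Ccnt1, −1.47 for Ccnt2, −1.17 for Cdk12, −1.17 for Ell2, −0.72 for Hexim1, −0.45 for Cdk13, 0.02 for Cdk9 and 0.97 for Polr2a. Polr2a and Cdk9 thus had the highest values of the members before and after the adjustment. Among all genes adjusted, Polr2a was at percentile 82.9 and Cdk9 at 43.1.

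In AS 5 of 8 members were lower in Ft (20.7% of genes called, 14% lower), and at RC4 4 of 8 (29% called, 15% lower). These tests, like those in NT, did not pair the fractions split from the same culture. With the culture as a replicate block, the 15 member calls in NT, AS and RC4 kept direction and call. The cyclins, Cdk12 and Cdk13 passed in all 3 conditions, but the Cdk12 call in AS (−1.30 ± 0.40, edgeR, adjusted p = 0.044) was lost with DESeq2, with library totals and without either 4sU NT library. Ell2 passed in NT and in AS (−1.49 ± 0.31) and not at RC4 (−0.40 ± 0.28, edgeR, adjusted p = 0.31), where 171 RPM in 4sU stood beside 130 in Ft. The difference of the Ell2 ratio between RC4 and NT was 1.25 ± 0.35, which did not pass (edgeR, adjusted p = 0.29, with 0% of genes called, 1291 with an unadjusted p under 0.05 and 46 by DESeq2). With the culture that both fractions were split from as a replicate block, it was 1.24 ± 0.28 and passed (edgeR, adjusted p = 0.00063), in a fit that called 8.35% of all genes. The same comparison between AS and NT called no member and 0% of genes (1003 with an unadjusted p under 0.05, DESeq2 34).

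**Figure D4:**
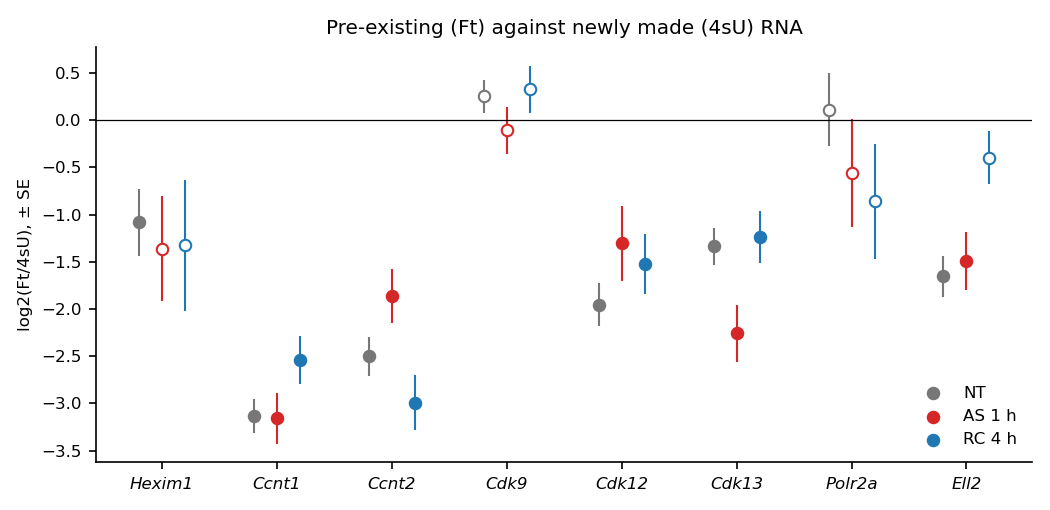
Log2 ratio of pre-existing (Ft) to newly made (4sU) RNA (± SE) for each member in NT, AS and RC4, filled where the edgeR adjusted p was under 0.05. Ccnt1 and Ccnt2 are lowest in NT and RC4, and Ccnt1 (−3.16) and Cdk13 (−2.26) in AS. Cdk9 stays between −0.11 and 0.33, Polr2a is at 0.11 in NT, −0.56 in AS and −0.86 in RC4, and Ell2 moves from −1.65 in NT to −0.40 in RC4.

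TIA1 immunoprecipitates were compared with their inputs to ask which transcripts TIA1 held. In NT cells, transcripts of both P-TEFb cyclins were enriched, 2 of 8 members beside 18.5% of 9765 genes (8.83% higher). Ccnt2 had 74.8 and 84.8 RPM in the TIA1 libraries and 13.5 and 10.1 in the inputs (2.73 ± 0.48, edgeR, adjusted p = 0.0034). Ccnt1 had 49.0 and 40.4 against 10.2 and 13.6 (1.94 ± 0.48, edgeR, adjusted p = 0.016). The TIA1 libraries lay above both inputs for both genes. In AS the members that passed were Ccnt1 (32.9 and 48.4 against 8.03 and 12.2, 2.01 ± 0.48, edgeR, adjusted p = 0.017) and Cdk13 (43.1 and 71.0 against 13.3 and 22.0, 1.69 ± 0.46, edgeR, adjusted p = 0.03), again 2 of 8 beside 16.2% of genes (7.72% higher). Ccnt2 had 59.9 and 49.8 against 12.9 and 31.3 in AS, and missed the threshold (1.37 ± 0.46, edgeR, adjusted p = 0.067). It passed with TMM scaling (1.50, edgeR, adjusted p = 0.0458), with library totals (1.54, edgeR, adjusted p = 0.0497) and without input AS replicate 2 (2.15, edgeR, adjusted p = 0.0482). Of all genes called in AS, 47.6% were higher as scaled here, and 59.9% with library totals. Cdk9 at −0.93 ± 0.37 in NT and 0.38 ± 0.37 in AS did not pass.

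The difference in enrichment between AS and NT passed for no member (0.0102% of genes, 431 with an unadjusted p under 0.05, DESeq2 28). Neither did the input change in AS (0.154%, 331 with an unadjusted p under 0.05, DESeq2 48). Without pairing immunoprecipitate and input by replicate number, the counts went from 2 to 1 in NT and from 2 to 0 in AS. Leaving out 1 library gave 1 to 2 in NT (1 without input NT replicate 2) and 0 to 2 in AS (0 without input AS replicate 1 or either TIA1 AS library, 1 without input AS replicate 2). UUUU, a run of the base TIA1 binds, occurred 11.5 to 41.9 times per kb in the 3′UTRs that end at the printed PASs, beside a median of 12.6 over 9077 genes (quartiles 6.56 and 19.9). The values over all genes are of the annotated 3′UTR of the longest coding transcript, so the regions are not like for like. Per kb, UUUU occurred 15.3 times in Ccnt1 and 15.3 to 20.9 times in Ccnt2, against 39.8 in the main Cdk13 3′UTR and 18.6 in Cdk9. In number there were 69 in Ccnt1 and 46 to 69 in Ccnt2, against 23 in the main Cdk13 3′UTR, 9 in Cdk9 and 132 in the distal Cdk12 3′UTR.

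Cytoplasmic RNA of C2C12 cells asked whether stress and recovery looked alike in myoblasts and myotubes. No member passed in either cell state, beside 0.0691% of genes in MB AS, 0.928% in MB RC4 (0.75% higher), 0.0493% in MT AS and 1.35% in MT RC4 (962, 2173, 989 and 1571 of 10134 genes with an unadjusted p under 0.05, among them 1, 1, 2 and 5 of the 8 members). Ell2 had the lowest p-value of the members at RC4 in both. It was at 29.3 and 57.5 RPM in MB NT, 36.1 in AS and 166 in RC4 (1.93 ± 0.46, edgeR, adjusted p = 0.10), and at 44.2 and 25.2 in MT NT, 50.3 in AS and 174 in RC4 (2.33 ± 0.45, edgeR, adjusted p = 0.089). Both RC4 libraries lay above the other 3 libraries of their cell state, and DESeq2 called Ell2 in MT (adjusted p = 0.0247). In MT, Ccnt1 was at 42.3 and 37.1 in NT, 25.7 in AS and 18.0 in RC4 (−1.13 ± 0.32, edgeR, adjusted p = 0.19), and Cdk12 at 12.4 and 16.4 in NT, 5.96 in AS and 2.64 in RC4, from 6 reads (−2.42 ± 0.72, edgeR, adjusted p = 0.20). Their RC4 libraries were the lowest of the 4. Hexim1 had 12, 0, 5 and 0 listed reads in MB NT, NT, AS and RC4, and 14, 37, 24 and 0 in MT. Ccnt2 in AS was at 15.4 against 3.33 and 3.27 in MB NT, from 37, 5 and 5 reads, a change of 2.20 ± 0.50 that did not pass (edgeR, adjusted p = 0.42).

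Without MB NT replicate 1 or 2, Ell2 passed in MB RC4 (1.52 and 2.50), where these fits called 14.1% and 6.84% of all genes. In MT RC4 4 or 3 members passed in them, namely Ell2, Cdk12 and Hexim1 in both cases and Ccnt2 in the first, beside 9.09% and 8.04% of all genes. The difference between MT and MB in the response passed for no gene in AS (0%, 581 with an unadjusted p under 0.05, DESeq2 10) or in RC4 (0%, 886, DESeq2 8), and for Ell2 at RC4 it was 0.40 ± 0.67.

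In untreated total RNA, myotubes were compared with myoblasts. Ccnt2 was higher and Cdk12, Polr2a, Cdk13 and Cdk9 were lower in MT, 5 of 8 members beside 61.9% of 10249 genes (32.6% higher, 29.3% lower). Ccnt2 was at 30.4 and 27.9 RPM in MB and 44.8 and 49.1 in MT (0.69 ± 0.16, edgeR, adjusted p = 0.0016). Cdk12 was at 21.6 and 25.3 in MB and 8.34 and 12.2 in MT (−1.18 ± 0.25, edgeR, adjusted p = 0.00073). Polr2a was at 14.7 and 14.9 in MB and 6.79 and 6.91 in MT (−1.11 ± 0.29, edgeR, adjusted p = 0.0035). The groups did not overlap for these genes. The smaller differences were those of Cdk13 (−0.48 ± 0.15, edgeR, adjusted p = 0.0095) and Cdk9 (−0.31 ± 0.12, edgeR, adjusted p = 0.03). Ccnt1, with 55.3 and 56.5 in MB and 55.6 and 53.1 in MT, differed by −0.04 ± 0.14, Ell2 by −0.05 ± 0.18 and Hexim1 by 0.57 ± 0.41. DESeq2 called 2 of the 8 members, Ccnt2 and Cdk12, beside 4668 of the 10249 genes. Leaving out 1 library took away the calls of Cdk13 (without MT replicate 2 or MB replicate 3, −0.44 and −0.34) and Cdk9 (without MT replicate 3, −0.18). In these bulk libraries, a change in RNA per cell and a change in the share of cells that carry it cannot be told apart.

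The 3′READS reads were also split by PAS to ask whether members switched isoform. RED is the change in log2 of distal over proximal PAS reads, tested with edgeR as an isoform by group interaction on the 2 PASs with most reads. Between MT and MB, 1 of 5 members tested passed, beside 4.3% of 4326 genes. It was Ccnt2, whose distal PAS took a larger share in myotubes. The MB libraries had 17 of 93 and 37 of 107 reads of the 3 main PASs at the distal one, or 18.3% (Wilson 95% confidence interval 11.7 to 27.3%) and 34.6% (26.2 to 44.0%). The MT libraries had 99 of 145 and 119 of 179, or 68.3% (60.3 to 75.3%) and 66.5% (59.3 to 73.0%). The intervals of the groups did not overlap, and RED of the distal against the middle PAS was 2.63 ± 0.41 (edgeR, adjusted p = 0.026). With the replicate number as a block, for which these libraries gave little ground (correlation of same-numbered deviations 0.0705), the adjusted p was 0.147. The call was also lost without MT replicate 2 (2.45) and without MB replicate 2 (2.25).

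In all other comparisons no gene passed the isoform test (0%, with 42 to 851 genes of 3103 to 4215 at an unadjusted p under 0.05), so the following shares are descriptions of single libraries. For Ccnt2 in 4sU, Ft and total RNA that test compared the proximal and middle PASs, not the distal one. With the most proximal and most distal PAS compared instead, RED of Ccnt2 was −1.03 ± 0.44 in 4sU AS (unadjusted p = 0.0512, edgeR, adjusted p = 0.331), −2.26 ± 0.64 in Ft AS (unadjusted p = 0.0097, edgeR, adjusted p = 0.372) and −1.92 ± 0.66 in Ft RC4 (unadjusted p = 0.022, edgeR, adjusted p = 0.158), and none passed. The distal share of Ccnt2 was 39.7% and 34.7% in newly made NT RNA, 19.1% in AS (36 of 188 reads) and 30.9% in RC4. In Ft it was 28.3% and 31.0% in NT, 8.45% in AS and 10.2% in RC4, the lower values resting on 6 distal reads each. In the TIA1 libraries it was 45.6% and 53.6% in NT and 22.2% and 19.4% in AS. The AS libraries thus had the smaller share in each of these sets. The inputs gave 36.6% and 0% in NT and 16.2% and 18.5% in AS, from 20 to 54 reads.

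Cdk12 in newly made RNA had 71.5% (88 of 123) and 81.7% (183 of 224) of its reads at the distal PAS in NT, 24.3% (9 of 37) in AS and 70.0% (166 of 237) in RC4. The AS library stood apart from the 3 others, with an interval of 13.4 to 40.1% against a lower bound of 63.0% or more in them. RED was −3.39 ± 0.76 (unadjusted p = 0.0051, edgeR, adjusted p = 0.298), and with only genes above 20 reads per isoform tested the adjusted p was 0.0477, in a fit that called 2.35% of 2260 genes. Fisher's exact test on the reads of the AS library and each NT library gave 5.79e-07 and 1.12e-11, which compares those libraries and not the conditions. In Ft the distal share was 48.7% and 34.0% in NT, 68.8% in AS from 11 of 16 reads (44.4 to 85.8%) and 24.6% in RC4, so the AS library lay above the others there and below them in newly made RNA. Ccnt1 in newly made RNA had 22 reads at a PAS 3766 nt past the stop codon and 514 at the main PAS in AS, against 7 and 870, and 7 and 1389, in NT (RED −2.75 ± 0.55, edgeR, adjusted p = 0.298).

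An intronic PAS of Ccnt1 (chr15:98381564-98381593, − strand) carried 208 reads in 18 libraries. It is shown because transcripts that end there lack the last exons.
Ccnt1 intronic: ATTAAAggaaaccccagtggtgacatagaa
It had 5 to 19 reads in each C2C12 library, 5 to 9 in 6 of the NIH3T3 total, input and TIA1 libraries, and no listed read in any 4sU or Ft library, although Ccnt1 as a whole had up to 1760 reads there.

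**Figure D5:**
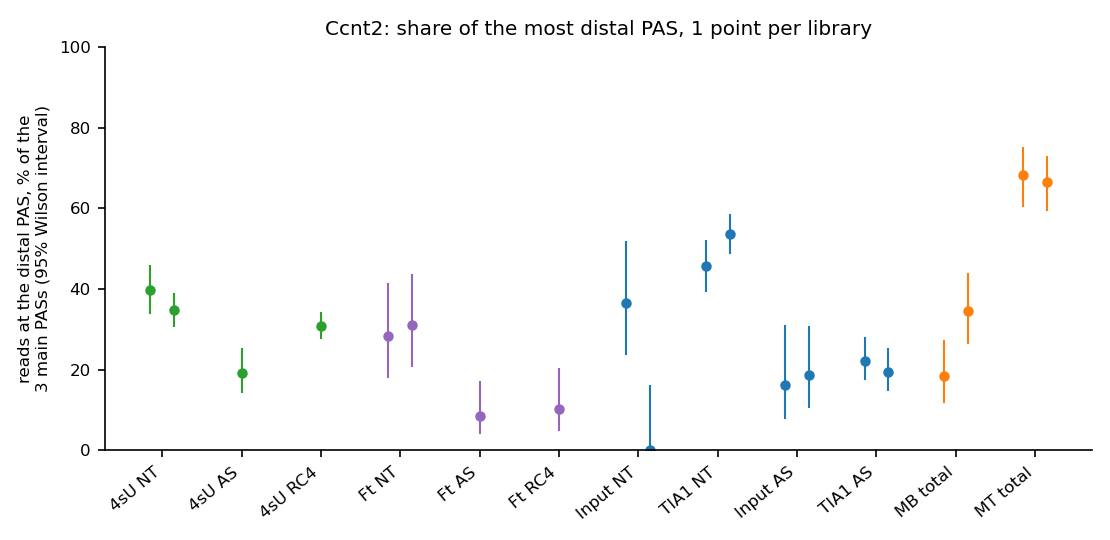
Share of Ccnt2 reads at the distal PAS, in percent of the reads at its 3 main PASs, 1 point per library with its 95% Wilson interval. The MT libraries at 68.3% and 66.5% lie above the MB libraries, and the AS libraries of 4sU, Ft and TIA1 lie below their NT libraries.

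The list set beside the members held 42 other genes of the elongation machinery, covering the 7SK particle, the super elongation complex, the pausing factors DSIF and NELF, FACT, the PAF complex, TFIIH kinase and the remaining Pol II subunits. In RNA-seq 41 of the 42 were tested. After AS, 1 rose and none fell, and that 1 was Aff1, a scaffold of the super elongation complex (0.49 ± 0.15, edgeR, adjusted p = 0.039). At RC4, 16 rose and 8 fell (27.6% and 24.2% of all genes), with a list median of 0.20 beside −0.01 for all genes. Aff1 (3.06 ± 0.14) and Eaf1, a partner of the ELL proteins (2.89 ± 0.17), had the largest rises and the NELF subunit Th1l the largest fall (−1.85 ± 0.24), with edgeR adjusted p-values of 1.7e-21, 1e-18 and 1.7e-08. Of the 11 other Pol II subunits none rose and 4 fell, with a median of −0.45.

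Aff1 and Eaf1 also passed at RC4 in other sets. In total RNA 3′READS, 2 of 39 rose and 1 fell (4.32% and 2.28% of all genes), and they were Aff1 (2.85 ± 0.61), Eaf1 (2.71 ± 0.39) and Th1l (−1.09 ± 0.25). Newly made RNA had 3 higher and 5 lower of 39 (12.7% and 10.9% of all genes), among them Hexim2, the relative of Hexim1 (−3.60 ± 0.71, edgeR, adjusted p = 0.0055). Pre-existing RNA had 7 higher and 4 lower of 39 (13.6% and 9.07% of all genes), with Aff1 at 3.73 ± 0.72 and Eaf1 at 2.53 ± 0.22, and with Hexim2 not listed in the RC4 library. In MT cytoplasm Aff1 alone of 38 passed (3.55 ± 0.43, edgeR, adjusted p = 0.047), and in MB cytoplasm again Aff1 alone, which had no listed read in the MB NT libraries.

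Log2(Ft/4sU) in NT was higher for 13 and lower for 9 of 39 genes of this list (19.3% and 23.3% of all genes), and 7 of the 9 Pol II subunits tested were higher. Cdc73 of the PAF complex (−2.95 ± 0.20), Aff1 (−2.39 ± 0.67) and Eaf1 (−1.92 ± 0.20) were the lowest. TIA1 enrichment in NT was higher for 2 and lower for 9 of 39 (8.83% and 9.7% of all genes), with Cdc73 at 3.08 ± 0.35 and the Pol II subunit Polr2j at −3.07 ± 0.64. Between MT and MB, 6 were higher and 15 lower of 38 (32.6% and 29.3% of all genes). Hexim2 was higher (1.68 ± 0.41) and Larp7, which binds 7SK RNA, lower (−1.30 ± 0.18), with edgeR adjusted p-values of 0.0018 and 1.5e-05.

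Across the 10 NIH3T3 total RNA libraries, the genes whose levels followed Ccnt2 most closely among 6165 genes with at least 50 reads on average were Snrnp48 (Pearson's r 0.96, Spearman's rho 0.94), Snx16 (0.95 and 0.95) and Mef2d (0.94 and 0.95). Without the 2 libraries farthest from the median of Ccnt2, r was 0.87, 0.92 and 0.89. These are descriptions over libraries that share replicate sets, chosen as the highest of many.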

How the data were processed

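The authors trimmed 3′READS reads with Cutadapt, aligned them to mm9 with bowtie2, kept reads with untemplated Ts, joined nearby cleavage positions into PAS clusters and deposited each cluster's count of reads without normalization. For RNA-seq the authors aligned with STAR and deposited raw counts of reads in coding sequences per gene. Clusters with fewer than 5 reads are not listed, which hides low isoforms and sets them to 0.

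Samples were grouped by their labels. Clusters within 24 nt were joined across libraries and assigned to genes on NCBIM37 with the annotation supplied for it. Mitochondrial genes and clusters in windows of several genes (1237) were left out. RNA-seq genes needed more than 5 reads in every library. Counts were scaled by median ratios and tested with edgeR 4.0.16 (quasi-likelihood, R 4.3.3, Benjamini-Hochberg, threshold 0.05, on all genes of an experiment at once), after a check on simulated data. The simulated counts had the same dispersion for every gene and no effect of replicate or culture, so that check does not cover such effects. The replicate number was a block for total RNA, where deviations of same-numbered NT and AS libraries correlated at 0.90 to 0.92, and for TIA1 and input, where they correlated at 0.40 to 0.68. The 4sU and Ft libraries had no block in the main fit, although both fractions of a culture were split from it. Nothing in the labels says that replicates were separate cultures, so p-values measure only the spread between these samples, which may be technical. Where the NT libraries were labelled 0 h and 4 h, that spread also holds any difference between those times. Intervals of shares are Wilson intervals and cover counting error only.

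Alternatives were TMM or library-total scaling, no filter, DESeq2 1.42.0, last-exon PASs only, other isoform filters or PAS pairs, blocks added or dropped, and each library left out. The named genes are all 8 members, up to 3 genes of the listed machinery with the most extreme log2 fold change among those that passed in a comparison, and the 3 genes most like Ccnt2. The members and lists were chosen with earlier results of these data known. The tests of a difference between Ft/4sU ratios and the uridine adjustment were added after seeing the data. No part of this report uses the study's own fold changes.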

Additional observations from a re-analysis of the deposited data

How the results depend on the processing

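Of the counts of members called under each alternative, 403 equalled those reported, 23 differed within 1.5 times and 28 by more. Of single log2 fold changes, 324 counted as the same, 47 kept only their direction, 6 moved and 3 reversed. The same means that direction and call were kept. For RNA-seq with 1 library left out, where no test was possible, it means the same direction and a shift smaller than the reported SE. Those that moved were such untested values with a shift of at least that SE. The cause of these changes was not tested. The reversed values are those of RNA-seq RC4 scaled by library total, −0.15 for Ccnt1, −0.16 for Ccnt2 and −0.26 for Cdk13. Library totals also moved the median of all genes at RC4 to −0.30 in 4sU and −0.44 in Ft, and the share of higher calls among all genes called from 65.4% to 38.5% in total RNA RC4, 62.9% to 35.8% in 4sU AS, 45.3% to 34.2% in Ft against 4sU in NT, 48.3% to 28.7% in the same at RC4 and 80.9% to 53.4% in MB RC4.

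DESeq2 called 1 member in RNA-seq AS, 0 in 4sU AS, 1 in MT RC4 and 2 between MT and MB, where edgeR called 2, 1, 0 and 5. Over all genes, DESeq2 called 300 of 10829, 451 of 10916, 166 of 10134 and 4668 of 10249 in these comparisons, and edgeR 596, 388, 137 and 6344. Without a filter RNA-seq AS kept 1. Without the replicate block TIA1 had 1 member in NT and 0 in AS. The culture as a replicate block gave 1 member (Ell2) for the change of Ft/4sU at RC4, and changed no other count by over 1.5 times. The isoform test with more than 20 reads per isoform called 1 member, Cdk12, in 4sU AS, in Ft against 4sU in NT and in Ft against 4sU at RC4, where 0 were called before. With the replicate block, the isoform test called 0 between MT and MB.

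Leaving out 1 library gave 0 to 1 members in total RNA RC4, 0 to 1 in 4sU AS, 1 to 3 in 4sU RC4, 1 to 2 for TIA1 in NT, 0 to 2 for TIA1 in AS, 0 to 1 in MB RC4, 0 to 4 in MT RC4 and 0 to 1 for isoforms between MT and MB. Where this left a group with 1 library, its spread was taken to be that of the other groups. In RNA-seq it left no residual degrees of freedom, so these are values with no test (Ell2 0.38 and 0.76 in AS, 1.40 and 1.77 in RC4, Polr2a −1.04 and −1.40 in RC4). Low 3′READS counts limit Hexim1, Polr2a and Cdk12 most, whose median count per library was 18 to 26. Why these members were read so little was not tested.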
